A study of Mus musculus with 6 samples.

Results

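Of 47729 mouse genes in the count files, 30 genes of cholesterol synthesis, sterol sensing, efflux and esterification were followed, chosen by name as a pathway list. All 30 were found by symbol and identifier, and all 30 had enough reads to be among the 13767 genes tested. They comprised 7 enzymes of the mevalonate steps, 11 of the squalene and sterol steps, 5 genes of sterol sensing and transport, and 7 of efflux, ester formation and lipoprotein handling. The livers came from C57BL/6 mice that had eaten a diet with 0.1% DDC, a porphyrin-forming compound that injures bile ducts and hepatocytes, for 17 days. There were 3 control libraries, which the sample labels call WT and the series design calls shNC, and 3 libraries labelled ATOH8 knockdown (shAtoh8). Both groups ate DDC, so no library shows the liver without injury. The labels give neither how the knockdown was made or delivered nor whether the 3 libraries of a group came from separate animals, so every p-value rests on the spread among these libraries alone, and that spread may be technical.

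Cells make cholesterol from acetyl-CoA by way of mevalonate, farnesyl diphosphate, squalene and lanosterol. When membrane sterol falls, SCAP carries the transcription factor SREBP2 to the Golgi, where it is cut and released to switch on the synthesis enzymes and uptake genes. INSIG proteins hold SCAP in the endoplasmic reticulum when sterol is plentiful. Oxysterols activate the nuclear receptor LXR (LXR alpha is encoded by Nr1h3), which switches on exporters such as Abca1, Abcg5 and Abcg8. In liver the ABCG5 and ABCG8 pair moves sterol into bile, a route that DDC injury disturbs.

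Each library held between 31912058 and 37969644 reads assigned to genes. Levels are given as CPM, read counts scaled to a common library size after TMM (a correction for library composition). Atoh8, which checks the labels, read 63.8, 16.8 and 16.4 CPM across the controls and 10.2, 9.83 and 5.64 CPM across the knockdown libraries, in the order of replicates 1 to 3 that is used throughout. It was below every control in all 3 knockdown libraries, without passing the test (log2 fold change -1.92, SE 0.58, edgeR adjusted p = 0.197). On all 6 libraries DESeq2 called Atoh8 (DESeq2 adjusted p = 0.0186), as did limma-voom with quality weights (limma-voom adjusted p = 0.0123). The fit with an offset for GC content and transcript length also called it (edgeR adjusted p = 0.0350), whereas the other fits on all 6 did not. It fell by 0.95 without control replicate 1 (edgeR adjusted p = 0.0115). That library stood apart, with a Pearson correlation of log2 CPM over genes of 0.916 and 0.907 with control replicates 2 and 3, which had 0.984 between them. Its correlations with knockdown replicates 1 to 3 were higher, at 0.939, 0.947 and 0.922. Those of control replicates 2 and 3 with the knockdown libraries ran from 0.937 to 0.956. Control replicate 1 also had the smallest share of reads that fit no gene (2.48%, others 4.18% to 5.66%). Its mitochondrial share was the smallest (2.43%, others 3.48% to 6.94%). Its share of reads that fit more than 1 gene was the largest (6.87%, others 4.69% to 6.17%). Its TMM factor was the lowest (0.852, others 0.944 to 1.13). Results for named genes are therefore also given without control replicate 1 where that makes or ends a call. That fit sets control replicates 2 and 3 alone against the 3 knockdown libraries. Alb, the hepatocyte albumin gene, held 77150 to 102962 CPM. The labels name hepatocytes, but RNA came from whole livers. The bile duct keratin genes Krt19 and Krt7 lay at or below 0.166 and 0.497 CPM. The other cholangiocyte markers listed were higher. Over all libraries Epcam held 0.292 to 1.35 CPM, Prom1 0.910 to 14.2 CPM and Sox9 7.35 to 13.3 CPM. Spp1 held 30.7 to 539 CPM and Cdh1 67.4 to 210 CPM.

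Insig2 was the 1 member that passed the test with all 6 libraries. It rose in the knockdown livers, from 81.0 ± 17.6 CPM (SD, n = 3) to 235 ± 14.7 CPM (SD, n = 3). None of the 18 synthesis enzymes and none of the 4 genes of the LXR side (Abcg5, Abcg8, Abca1 and Nr1h3) passed edgeR in either direction. In counts simulated with the spread of these libraries, edgeR on all 6 recovered 4% of 2-fold changes and 70% of 4-fold changes. Without control replicate 1 it recovered 68% and 86%. The changed genes, 50 per fold change, were drawn from all tested genes and not from the members. Noise was independent between genes, so the simulation held no shift shared by many genes of 1 library. A gene that did not pass may therefore still have changed. Both sides had negative medians, at -0.22 on the log2 scale for the 21 genes of the SREBP2 side (the enzymes, Insig1, Srebf2 and Stard4) and -0.33 for the LXR side, against -0.05 over all genes tested. In these bulk samples fewer cells of a type and less RNA per cell cannot be told apart.

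A gene was called at a Benjamini-Hochberg adjusted p under 0.05 in edgeR's quasi-likelihood test, adjusted over all genes. Of the 30 members 1 was called higher and 0 lower, where 0.741% of all tested genes were called higher and 0.123% lower. At an unadjusted p under 0.05 there were 2 members, Insig2 higher and Tm7sf2 lower, against 14.5% of all genes. DESeq2 also called 1 member higher and 0 lower, where it called 636 of all 13767 genes higher and 298 lower. The fitted fold changes were negative for 23 members and positive for 7, and 54.7% of all tested genes had negative values. The groups did not overlap for 4 members (13.3%), below the 23.1% of all tested genes. Those 4 were Insig2, higher in knockdown (1 of 30, with 13% of all genes), and Acat2, Tm7sf2 and Msmo1, lower (3 of 30, with 10% of all genes).

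**Figure D1:**
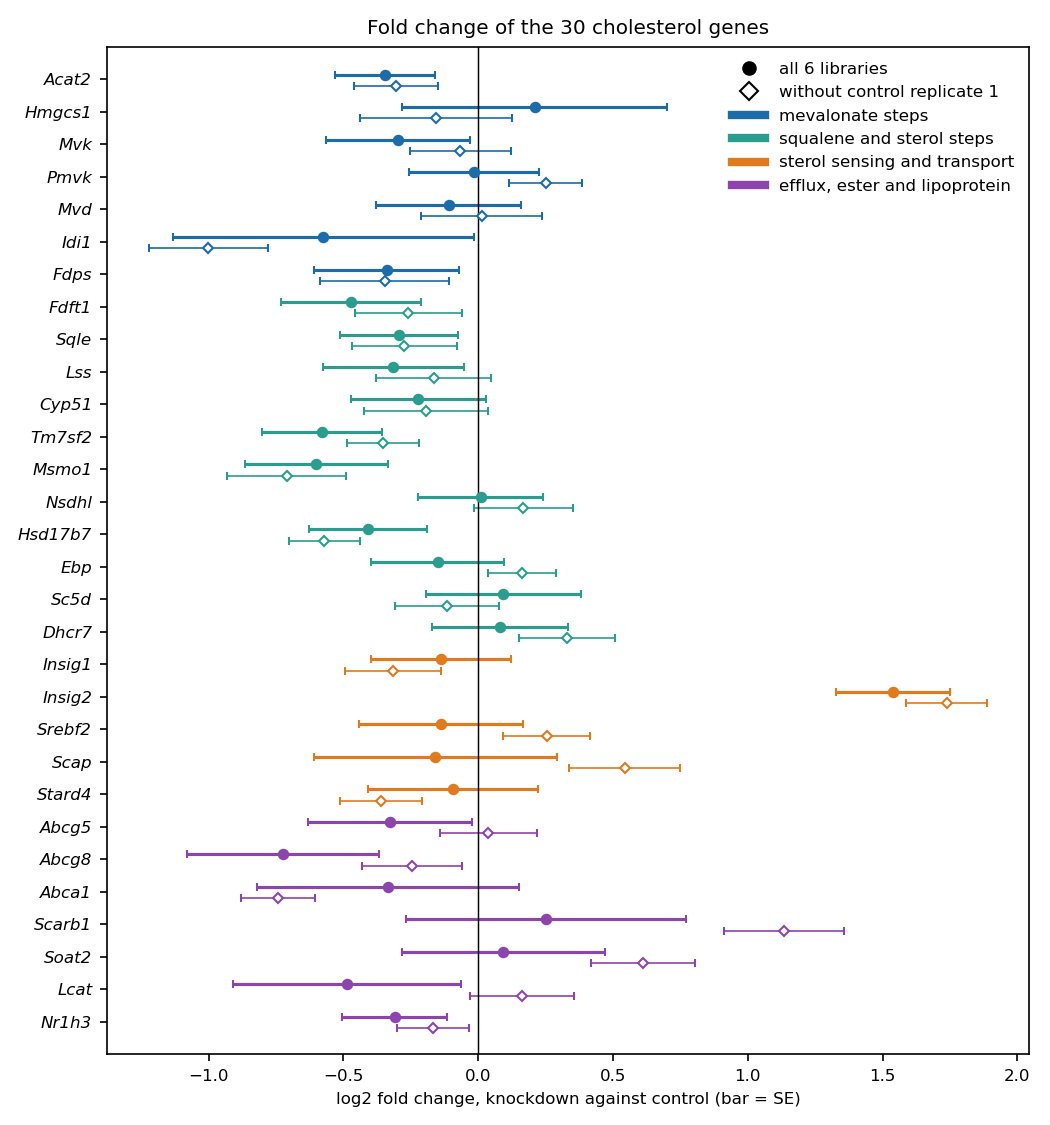
Log2 fold change (x axis, bars are SE) of each of the 30 genes (y axis, coloured by role), from all 6 libraries (filled circles) and without control replicate 1 (open diamonds). Insig2 lies at 1.54 and 1.74, apart from the other members, which lie between -0.72 and 0.25 with all 6 libraries.

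Without control replicate 1 the call rate rose for all genes. In that fit 7 members were called (23.3%), 3 higher and 4 lower, against 32.6% of all 14222 tested genes, 16.5% higher and 16.1% lower. The share among the members was thus not above that of all genes. The 3 higher were Insig2, Scarb1 and Soat2, and the 4 lower were Idi1, Msmo1, Hsd17b7 and Abca1.

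The mevalonate steps turn acetyl-CoA into farnesyl diphosphate. Hmgcs1, which makes HMG-CoA, stood at 154, 647 and 372 CPM in the controls and at 531, 302 and 524 CPM in knockdown. The lowest and the highest value were both controls, so the knockdown libraries lay inside the control range.

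Idi1, the isopentenyl diphosphate isomerase, stood at 30.3, 161 and 134 CPM in the controls and at 83.6, 49.4 and 85.5 CPM in knockdown. Control replicate 1 was the lowest library of all and control replicates 2 and 3 the highest. With all libraries the gene did not pass (log2 fold change -0.57, SE 0.56, edgeR adjusted p = 0.698). Without control replicate 1 its log2 level fell by 1.00 (SE 0.22, edgeR adjusted p = 0.00753). GENCODE places an opposite-strand transcript, Gm48574, over 9.22% of its exon bases, and the reads per unit of FPKM corresponded to 24.1% of its longest transcript.

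Acat2, which joins acetyl-CoA units at the entry of the pathway (the sterol esterifying enzyme often called ACAT2 is Soat2), stood at 87.9, 88.5 and 78.4 CPM in the controls and at 66.4, 56.8 and 77.2 CPM in knockdown. All knockdown values lay below all controls, by little in replicate 3, and the difference did not pass (log2 fold change -0.35, SE 0.19, edgeR adjusted p = 0.458). The kinases Mvk and Pmvk and the decarboxylase Mvd had means of 39.5, 47.0 and 28.3 CPM in controls and 32.1, 46.6 and 26.2 CPM in knockdown, with overlapping groups.

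Fdps, which makes farnesyl diphosphate, needs its own reading, because its counts and FPKM disagree. FPKM divides reads by transcript length. By counts the gene held only 7.03 to 14.2 CPM, yet by the authors' FPKM it was the second most abundant member after Lcat, at 318, 240 and 220 FPKM in the controls and 208, 162 and 219 FPKM in knockdown. Gm43738, a protein-coding gene model on the same strand, covers 26.7% of its exon bases, and the count files hold reads that fit more than 1 gene on a separate ambiguous line. The counts of Fdps corresponded to 1.7% of its longest transcript. Neither unit called it (log2 fold change -0.34, SE 0.27, edgeR adjusted p = 0.625 from counts, against -0.39, SE 0.21, limma adjusted p = 0.461 on log2(FPKM + 1)).

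The squalene and sterol steps build lanosterol and then trim it to cholesterol. Msmo1, the C4-methyl sterol oxidase, showed the most negative fold change among the 18 enzymes. It stood at 270, 444 and 275 CPM in the controls and at 238, 172 and 241 CPM in knockdown, so that every knockdown library lay below every control. It missed the threshold with all libraries (log2 fold change -0.60, SE 0.26, edgeR adjusted p = 0.358), whereas it fell by 0.71 without control replicate 1 (SE 0.22, edgeR adjusted p = 0.0335).

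Tm7sf2, a sterol C14 reductase, stood at 116, 74.8 and 82.0 CPM in the controls and at 59.1, 68.6 and 54.6 CPM in knockdown. The groups did not overlap, and the log2 fold change was -0.58 (SE 0.22, edgeR adjusted p = 0.296), or -0.35 without control replicate 1 (SE 0.13, edgeR adjusted p = 0.0669). It shares 12.1% of its exon bases with the neighbouring Vps51.

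Hsd17b7, the 3-ketosteroid reductase of the pathway, stood at 85.0, 139 and 120 CPM in the controls and at 88.6, 81.3 and 89.1 CPM in knockdown. Control replicate 1 lay within the knockdown range. The gene did not pass with all libraries (log2 fold change -0.41, SE 0.22, edgeR adjusted p = 0.452), whereas it fell by 0.57 without that library (SE 0.13, edgeR adjusted p = 0.00909).

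The other 8 enzymes of these steps had overlapping groups and were not called in either fit. Sqle, the squalene epoxidase and a point of control of the pathway, had 163 ± 18.3 CPM (SD, n = 3) in controls and 133 ± 28.3 CPM (SD, n = 3) in knockdown. Cyp51, the lanosterol demethylase, had 301 ± 20.4 and 258 ± 73.8 CPM, and Dhcr7, which catalyses a last reduction to cholesterol, 130 ± 34.4 and 138 ± 26.4 CPM. Fdft1 (squalene synthase), Lss (lanosterol synthase), Nsdhl, Ebp and Sc5d ranged from 65.7 to 446 CPM over all libraries. Exons of Fdft1 overlap those of Ctsb on the opposite strand over 18.3% of their bases. Strand handling during counting was not given in the sources used here. Reads from this gene pair may therefore not be told apart. The same holds for Hmgcs1, where an antisense transcript covers 12.1% of the exon bases, and for Scap, where an opposite-strand transcript covers 13.2%.

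Over all 18 enzymes, 14 fold changes were negative (77.8%) and the median was -0.30 on the log2 scale, or -0.18 without control replicate 1, where Idi1, Msmo1 and Hsd17b7 were called lower (16.7%, with 16.1% of all genes called lower).

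Among the 5 genes of sterol sensing and transport, Insig2 was the 1 called. Insig2 encodes an endoplasmic reticulum protein that retains SCAP, and liver has a form of the transcript that insulin represses and fasting raises. The gene (ENSMUSG00000003721, GRCm38 chromosome 1, 121304353 to 121332589, minus strand) shares no exon bases with another annotated gene. Its levels were 100, 66.2 and 76.4 CPM in the controls, then 222, 233 and 251 CPM in knockdown. The lowest knockdown library held more than 2 times the highest control. The log2 fold change was 1.54 (SE 0.21, 95% interval 1.04 to 2.03, edgeR adjusted p = 0.0322), and 1.74 without control replicate 1 (SE 0.15, edgeR adjusted p = 0.000154). Leaving out control replicate 2 or 3, or knockdown replicate 1, 2 or 3, ended the call, with edgeR adjusted p of 0.146, 0.105, 0.204, 0.0914 and 0.197. The log2 fold change in those fits stayed between 1.41 and 1.64.

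Insig1, its close relative and a direct SREBP target, did not follow. It stood at 187, 361 and 241 CPM in the controls and at 242, 249 and 226 CPM in knockdown, with the knockdown libraries inside the control range (log2 fold change -0.14, SE 0.26, edgeR adjusted p = 0.851). Per transcript length, Insig2 held 97.6, 50.3 and 60.1 FPKM in the controls and 272, 220 and 198 FPKM in knockdown. From knockdown replicate 1 to 3 its level thus fell in FPKM, whereas it rose in CPM. Its reads per unit of FPKM, in control replicates 2 and 3, corresponded to 47.9% of its longest transcript. Why the units differ was not tested. Insig1 held 81.2, 163 and 106 FPKM in the controls and 105, 104 and 94.1 FPKM in knockdown. The ratio of Insig2 to Insig1 in FPKM was thus 1.20, 0.308 and 0.569 in the controls and 2.60, 2.11 and 2.11 in knockdown, with no overlap. By mean FPKM, Insig2 was the 15th of the 30 members in the controls and the 2nd, after Lcat, in knockdown.

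The promoters of both INSIG genes are shown because these paralogs parted, with those of the synthesis genes Hmgcs1 and Idi1 beside them. RefSeq (GRCm38.p6) holds a window of 300 bases, from 250 before to 50 after the start, for 24 of the 30 members by symbol, in 32 windows. Insig2 has 3 start sites there, which the gene counts do not separate. Capitals mark ATTGG on either strand (the NF-Y box, read as CCAAT on the other), TCACNCCAC on either strand (a core of the sterol response element) and AGGTCA on either strand (a nuclear receptor half-site).
Insig2, start site 1, chr1:121332540-121332839, minus strand: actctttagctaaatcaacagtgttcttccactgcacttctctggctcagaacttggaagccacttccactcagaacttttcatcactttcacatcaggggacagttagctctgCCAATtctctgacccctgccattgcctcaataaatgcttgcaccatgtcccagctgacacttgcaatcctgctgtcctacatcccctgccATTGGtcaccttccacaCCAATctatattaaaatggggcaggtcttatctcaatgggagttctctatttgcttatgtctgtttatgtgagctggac
Insig2, start site 2, chr1:121327975-121328274, minus strand: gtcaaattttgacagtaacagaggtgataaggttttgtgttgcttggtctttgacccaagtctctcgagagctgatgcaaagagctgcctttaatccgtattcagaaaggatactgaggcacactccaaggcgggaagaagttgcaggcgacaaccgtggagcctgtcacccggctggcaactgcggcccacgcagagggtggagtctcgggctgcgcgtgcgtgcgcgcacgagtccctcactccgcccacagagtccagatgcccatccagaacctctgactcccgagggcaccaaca
Insig2, start site 3, chr1:121327629-121327928, minus strand: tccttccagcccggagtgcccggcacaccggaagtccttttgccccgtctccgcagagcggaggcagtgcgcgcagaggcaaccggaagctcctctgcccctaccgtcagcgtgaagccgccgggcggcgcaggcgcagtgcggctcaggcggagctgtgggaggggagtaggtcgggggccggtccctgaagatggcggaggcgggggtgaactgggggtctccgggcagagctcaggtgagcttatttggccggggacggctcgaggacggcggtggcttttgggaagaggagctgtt
Insig1, chr5:28071162-28071461, plus strand: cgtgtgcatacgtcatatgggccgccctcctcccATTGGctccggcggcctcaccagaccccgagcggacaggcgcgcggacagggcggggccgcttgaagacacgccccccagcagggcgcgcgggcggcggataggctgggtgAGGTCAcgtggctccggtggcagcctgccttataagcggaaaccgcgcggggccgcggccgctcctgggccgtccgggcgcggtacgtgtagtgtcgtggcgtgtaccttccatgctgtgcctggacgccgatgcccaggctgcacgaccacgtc
Hmgcs1, chr13:119690101-119690400, plus strand: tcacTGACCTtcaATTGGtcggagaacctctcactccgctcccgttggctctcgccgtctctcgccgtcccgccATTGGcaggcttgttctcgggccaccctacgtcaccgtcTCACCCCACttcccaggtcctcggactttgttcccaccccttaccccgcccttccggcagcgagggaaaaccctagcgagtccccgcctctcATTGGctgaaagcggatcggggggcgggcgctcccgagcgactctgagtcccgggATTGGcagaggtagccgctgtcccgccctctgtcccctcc
Idi1, chr13:8885356-8885655, plus strand: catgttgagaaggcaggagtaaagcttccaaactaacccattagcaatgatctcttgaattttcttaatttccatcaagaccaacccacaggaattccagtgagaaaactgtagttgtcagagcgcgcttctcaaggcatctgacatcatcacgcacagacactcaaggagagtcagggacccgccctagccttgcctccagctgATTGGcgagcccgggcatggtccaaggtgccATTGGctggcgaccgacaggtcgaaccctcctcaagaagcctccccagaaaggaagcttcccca

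The window of Insig2 start site 1 holds 3 NF-Y boxes, whereas none of the searched motifs lies in the windows of sites 2 and 3. Hmgcs1 holds 4 NF-Y boxes, 1 half-site and the sterol element core, Idi1 holds 2 NF-Y boxes, and Insig1 holds 1 NF-Y box and 1 half-site. Over the members, 20 of 32 windows (62.5%) hold an NF-Y box, against 37.4% of all 32851 windows. The sterol element core lies in 1 member window (3.1%), that of Hmgcs1, against 1.24% of all windows. A direct repeat of AGGTCA with 4 bases between, the LXR element in its strict form, lies in 0 member windows and in 0.0152% of all windows, and AGGTCA alone in 15.6% and 16.3%. A match is a description of letters, not a site, and its absence says only that these letters are not in the window.

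Srebf2, Scap and Stard4 did not pass in either fit. Srebf2, which encodes SREBP2 itself, had 146, 86.1 and 68.1 CPM in the controls and 105, 90.5 and 77.7 CPM in knockdown. Scap, the escort of SREBP, had 165, 65.6 and 50.5 CPM in the controls and 93.8, 97.8 and 60.3 CPM in knockdown. For both genes control replicate 1 was the highest library, and the knockdown libraries lay between it and control replicate 3. Stard4, a soluble sterol carrier induced by SREBP2, had 85.3 ± 33.6 and 79.9 ± 9.75 CPM (SD, n = 3).

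**Figure D2:**
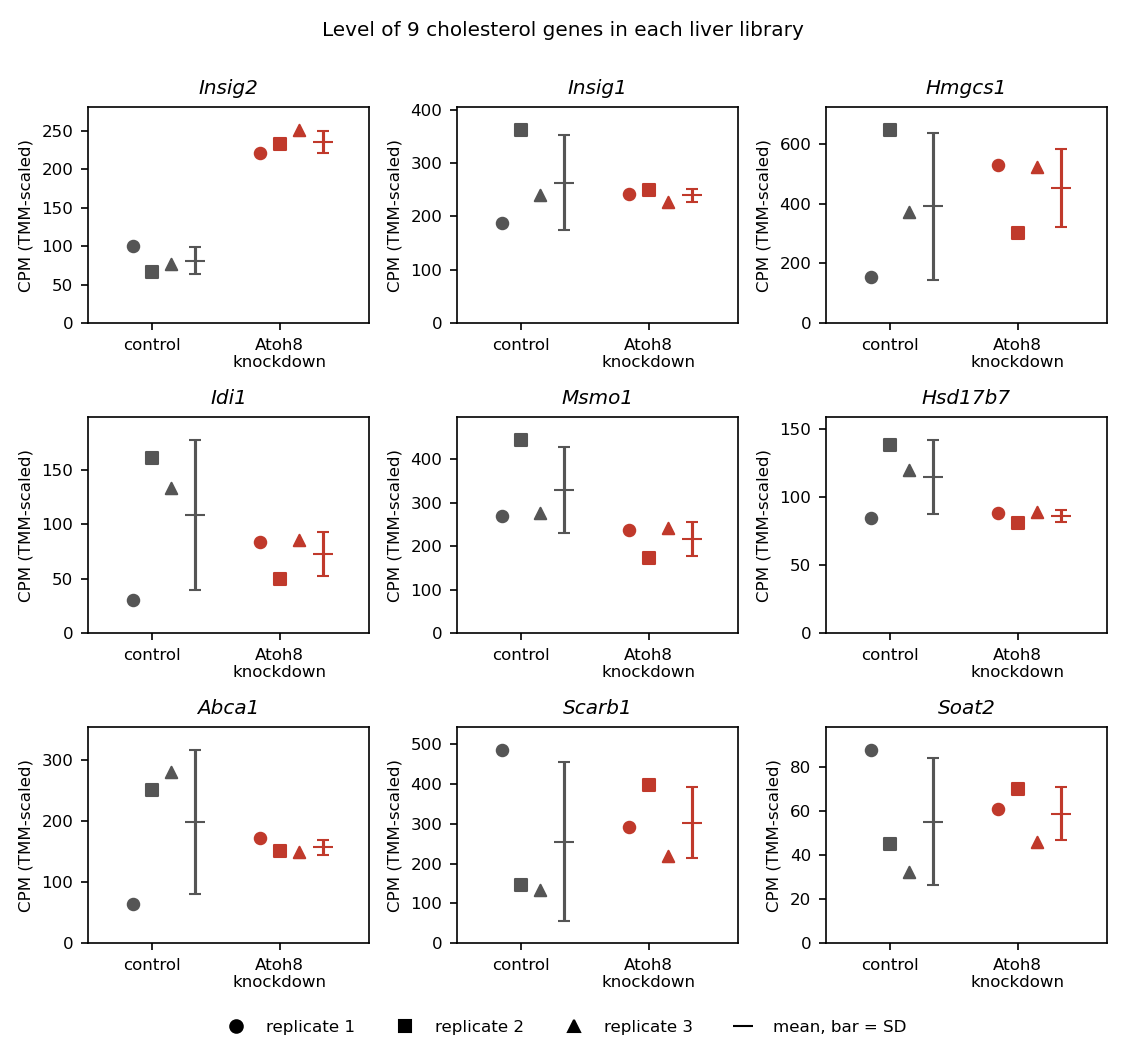
CPM (y axis, from 0) of 9 members in each library, control (grey) and Atoh8 knockdown (red), with the marker shape giving the replicate number and the mean and SD beside the points. Insig2 in knockdown sits between 222 and 251 CPM, above all controls, whereas in Idi1, Abca1, Scarb1 and Soat2 control replicate 1 lies on the far side of the knockdown libraries from the other controls.

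Of the efflux and ester genes, none passed with all libraries. Abca1, the LXR target that loads cholesterol onto apolipoprotein A-I, stood at 63.3, 251 and 280 CPM in the controls and at 171, 151 and 149 CPM in knockdown. Control replicate 1 was the lowest of the 6 libraries and control replicates 2 and 3 the highest. The log2 fold change was -0.33 (SE 0.49, edgeR adjusted p = 0.799). The gene fell by 0.74 without control replicate 1 (SE 0.14, edgeR adjusted p = 0.00329).

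Abcg5 and Abcg8 encode the subunits of the biliary sterol exporter and lie side by side on opposite strands, with 82 exon bases in common. Abcg5 stood at 226, 132 and 115 CPM in the controls and at 109, 159 and 109 CPM in knockdown. Abcg8 stood at 222, 111 and 95.6 CPM in the controls and at 76.0, 111 and 72.1 CPM in knockdown. In both genes control replicate 1 was highest and knockdown replicate 2 the highest of its group. Neither passed, with a log2 fold change of -0.33 for Abcg5 (SE 0.30, edgeR adjusted p = 0.682). Abcg8 had a log2 fold change of -0.72 (SE 0.36, edgeR adjusted p = 0.413). Without control replicate 1 they stood at 0.04 and -0.24.

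Nr1h3 stood at 100, 74.2 and 82.4 CPM in the controls and at 65.0, 78.0 and 64.1 CPM in knockdown (log2 fold change -0.31, SE 0.19, edgeR adjusted p = 0.528). Its groups overlapped through knockdown replicate 2.

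Scarb1, the receptor SR-BI that takes up cholesterol from HDL, stood at 486, 145 and 133 CPM in the controls and at 293, 398 and 219 CPM in knockdown. The 3 knockdown libraries lay above control replicates 2 and 3 and below control replicate 1. With all libraries it did not pass (log2 fold change 0.25, SE 0.52, edgeR adjusted p = 0.864). It rose by 1.13 without control replicate 1 (SE 0.22, edgeR adjusted p = 0.00443).

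Soat2, which esterifies cholesterol in hepatocytes, showed the same order. It stood at 87.8, 45.2 and 32.6 CPM in the controls and at 60.8, 69.9 and 45.9 CPM in knockdown (log2 fold change 0.09, SE 0.38, edgeR adjusted p = 0.937). It rose by 0.61 without control replicate 1 (SE 0.19, edgeR adjusted p = 0.0358). Lcat, the plasma enzyme that esterifies cholesterol on HDL and the most abundant member per length, had 423 ± 264 and 302 ± 64.4 CPM (SD, n = 3), with 725 CPM in control replicate 1.

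The SREBP2 and LXR sides were set side by side. Of the 21 genes of the SREBP2 side 17 had negative fold changes (81.0%), as did 4 of the 4 LXR genes, with 54.7% over all tested genes. Without control replicate 1 the medians were -0.19 and -0.21 and the counts 15 of 21 and 3 of 4, where 49.2% of all genes were negative. In that fit 3 of the 21 and 1 of the 4 (Abca1) were called lower, which is 14.3% of the 21, with 16.1% of all genes called lower. Summed over genes, the SREBP2 side held 2862, 3852 and 2883 CPM in the controls and 3164, 2328 and 3048 CPM in knockdown. The LXR side held 611, 568 and 573 CPM in the controls and 421, 500 and 394 CPM in knockdown. The groups overlapped for the first sum and not for the second. In summed FPKM the LXR side did overlap, at 243, 169 and 156 in the controls and 129, 170 and 128 in knockdown, as did each of its 4 genes singly in CPM. These sums carry no test, since the genes were chosen with earlier results known.

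Within the knockdown group most enzymes had their lowest level in the same library. Of the 18 enzymes, 15 were lowest in knockdown replicate 2 among the 3 knockdown libraries (83.3%), where 34.8% of all tested genes were. Their median difference from the mean of the other two knockdown libraries was -0.44 on the log2 scale. Pmvk, Tm7sf2 and Ebp were the 3 exceptions, with their lowest knockdown value in replicate 3. In the same library 6 of the 7 efflux and ester genes were the highest of the group (85.7%), all but Abca1, where 34.9% of all tested genes were, with a median 0.46 above the other libraries. Such an order was not particular to that library. Control replicate 1 was the highest control for 6 of these 7 genes (85.7%, against 47.6% of all tested genes). Knockdown replicate 3 was the lowest of its group for 6 of the 7 (85.7%, against 35.6%). Among the controls, replicate 3 was the lowest for 10 of the 18 enzymes (55.6%, against 31.5% of all tested genes) and the highest for 0, against 28.2%.

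**Figure D3:**
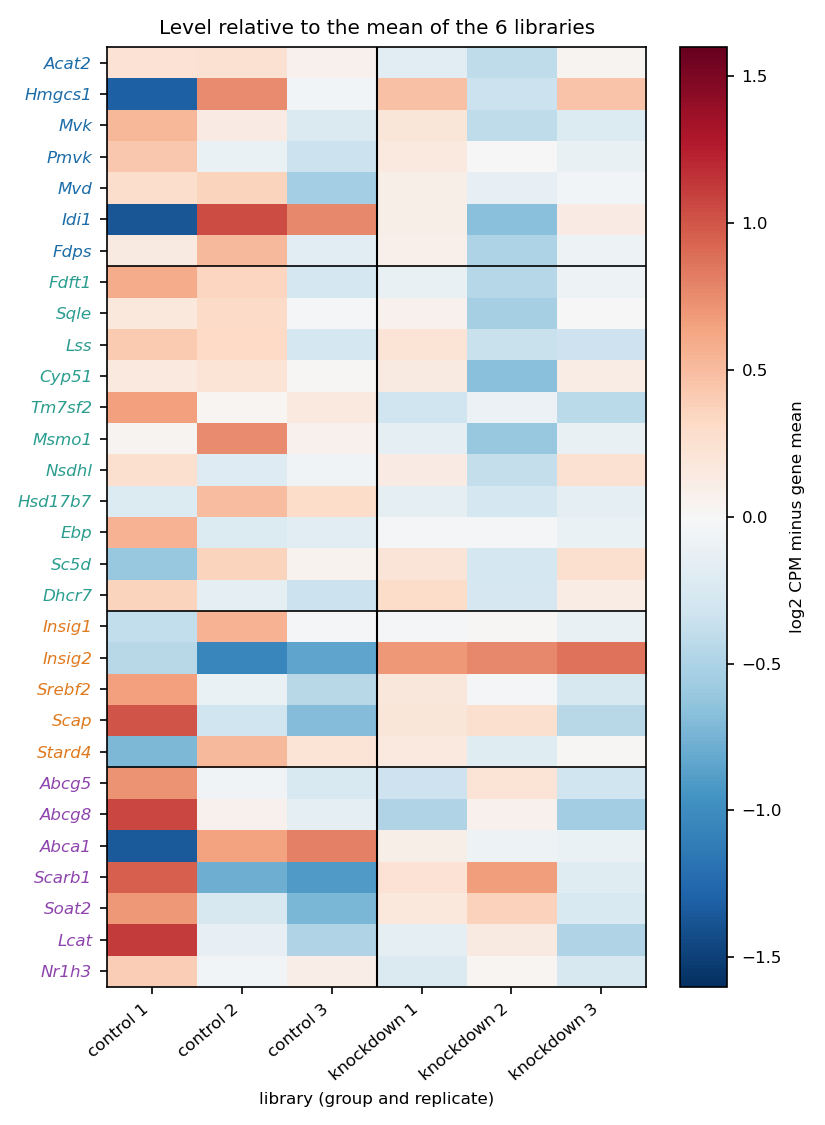
Log2 CPM of each of the 30 genes (rows, grouped by role) in each library (columns) minus that gene's mean over the 6 libraries, on a colour scale from blue (lower) to red (higher). Insig2 is red in all 3 knockdown columns, most enzymes are blue in knockdown replicate 2, and control replicate 1 differs from the other controls most in Idi1, Abca1, Scarb1 and Hmgcs1.

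The displacement of control replicate 1 was correlated with base composition among these genes, although genes of similar GC content also moved in opposite directions. Its log2 level minus the mean of control replicates 2 and 3 ran from -2.27 for Idi1, whose longest transcript has 41.9% G and C, and -2.06 for Abca1 (47.5%) to 1.52 for Scap (59.1%) and 1.80 for Scarb1 (48.5%). Across the 30 members Spearman's rho with GC content was 0.727, and across 13729 tested genes it was 0.647. Genes are not independent replicates, and these points share the same 3 libraries, so no p is given. The difference of the knockdown mean from control replicates 2 and 3 had a rho of 0.486 with GC content over the members and 0.357 over all genes. The part of base composition in the differences reported without control replicate 1 was not tested.

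**Figure D4:**
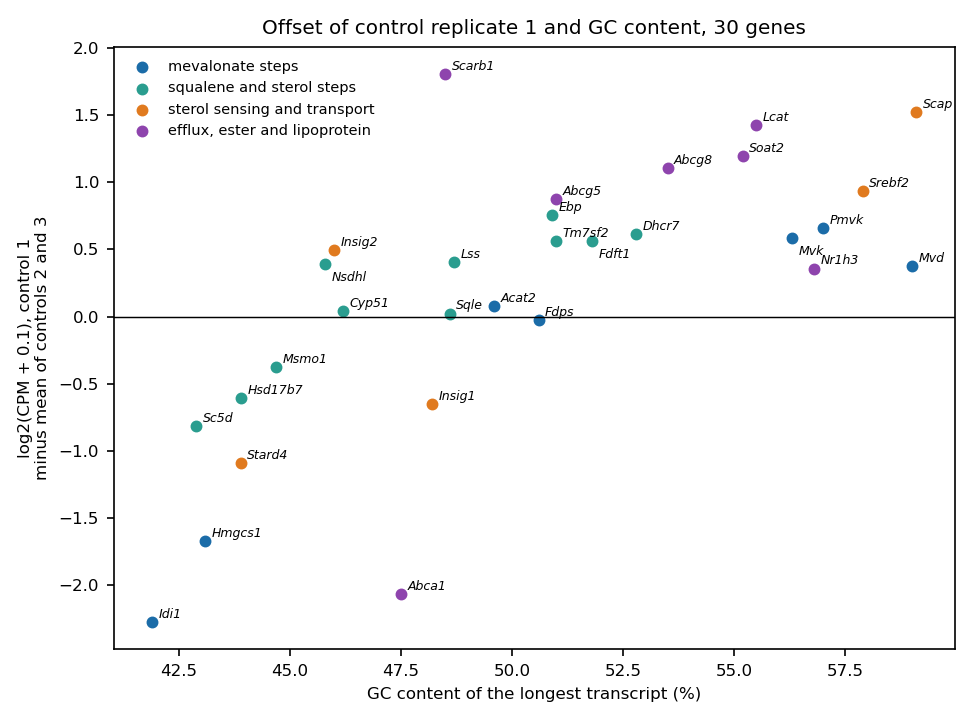
GC content of the longest transcript in percent (x axis) against log2(CPM + 0.1) of control replicate 1 minus the mean of control replicates 2 and 3 (y axis), 1 point per gene, coloured by role. Idi1 and Hmgcs1, with low GC content, lie below 0, and Scap and Lcat, with high GC content, lie above it. Insig2 (46.0%) and Nsdhl (45.8%) lie above 0 as well.

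Other genes of the pathway were taken from a list of synthesis partners, SREBP processing, SREBP targets, uptake and transport, and LXR targets. Of the 41 that were found, 0 passed edgeR with all libraries, where 0.864% of all tested genes did. At an unadjusted p under 0.05 there were 2 higher and 3 lower, against 14.5% of all genes. DESeq2 called 2 of the 41, and 934 of all 13767 genes. Of the 41 fold changes 21 were positive and 20 negative, with a median of 0.02. The negative share was 48.8%, with 54.7% over all tested genes.

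Por, the reductase that passes electrons to Cyp51 and Sqle, stood at 2628, 1239 and 1250 CPM in the controls and at 452, 760 and 435 CPM in knockdown. Every knockdown library lay below every control, without passing edgeR (log2 fold change -1.64, SE 0.39, edgeR adjusted p = 0.124). DESeq2 called Por (DESeq2 adjusted p = 0.00211), as did limma-voom with quality weights (limma-voom adjusted p = 0.00194). The fit with the offset for GC content and transcript length also called it (edgeR adjusted p = 0.0199). Without control replicate 1 it fell by 1.17 (edgeR adjusted p = 0.00436). Acat1, the mitochondrial thiolase, stood at 206, 256 and 258 CPM in the controls and at 151, 186 and 157 CPM in knockdown (log2 fold change -0.54, SE 0.19, edgeR adjusted p = 0.246). It fell by 0.63 without control replicate 1 (edgeR adjusted p = 0.00805).

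Gramd1b, which carries cholesterol from the plasma membrane to the endoplasmic reticulum, was scarce, at 1.52, 0.545 and 1.17 CPM in the controls and 4.73, 2.14 and 6.43 CPM in knockdown. The groups did not overlap and the gene did not pass edgeR (log2 fold change 2.04, SE 0.53, edgeR adjusted p = 0.150), although DESeq2 called it (DESeq2 adjusted p = 0.00715). It rose by 2.40 without control replicate 1 (edgeR adjusted p = 0.00657). Aacs, a cytosolic acetoacetyl-CoA synthetase, had a log2 fold change of -0.90 (SE 0.35, edgeR adjusted p = 0.305), or -1.13 without that library (edgeR adjusted p = 0.00611). Lipc, hepatic lipase, had a log2 fold change of 0.47 (SE 0.20, edgeR adjusted p = 0.330), or 0.65 without it (edgeR adjusted p = 0.00547). Soat1, the relative of Soat2 found in macrophages among other cells, stood at 6.42, 3.78 and 2.76 CPM in the controls and at 7.34, 6.45 and 8.88 CPM in knockdown (log2 fold change 0.81, SE 0.35, edgeR adjusted p = 0.351). It rose by 1.22 without control replicate 1 (edgeR adjusted p = 0.00495). Srebf1, Tmem97 and Osbp had log2 fold changes of -0.52, -0.40 and 0.36, and none of these passed edgeR with all libraries. Osbp alone of these passed without control replicate 1, at 0.42 (edgeR adjusted p = 0.0384). In that fit 16 of the 41 genes were called (39%), 8 higher and 8 lower, against 32.6% of all genes. In the list of other LXR targets and ester turnover 7 of 8 fold changes were positive, with a median of 0.53, whereas all 4 genes of the LXR side among the members were negative. This difference between the lists was not tested.

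Marker genes of other liver cells also differed in level between the libraries. For comparison, edgeR with all libraries called 0.741% of all tested genes higher and 0.123% lower. An unadjusted p under 0.05 in edgeR was held by 14.5%, and 54.7% had negative fold changes. Without control replicate 1, 16.5% were called higher and 16.1% lower. The summed level of 7 cholangiocyte markers was 206, 132 and 120 CPM in the controls and 778, 471 and 702 CPM in knockdown, where most of it was Spp1, which injured hepatocytes and macrophages also make. Of these markers 5 were tested, and 2, Spp1 and Prom1, were called higher by edgeR. The summed level of 12 macrophage markers was 732, 387 and 358 CPM in the controls and 707, 630 and 740 CPM in knockdown, so that control replicate 1 lay within the knockdown range. None of the 12 passed edgeR with all libraries (3 had an unadjusted p under 0.05, all higher), and 11 were called higher without control replicate 1. The summed level of 7 stellate and fibroblast markers was 106, 156 and 151 CPM in the controls and 230, 198 and 323 CPM in knockdown, and 1 of the 7, Acta2, was called higher by edgeR. The summed level of 8 hepatocyte markers overlapped, at 105749 to 150277 CPM in the controls and 102449 to 118762 CPM in knockdown, most of it Alb. Of these 8 markers 7 had negative fold changes, with a median of -0.38, and 0 were called by edgeR (1 had an unadjusted p under 0.05). That gene, Cps1, fell by 0.64 without control replicate 1 (edgeR adjusted p = 0.0468). The summed level of 7 endothelial markers was 161, 199 and 186 CPM in the controls and 136, 184 and 197 CPM in knockdown, with a median log2 fold change of -0.03 and 0 called by edgeR (0 at an unadjusted p under 0.05). The part of these cells in the levels of Insig2 and the other members was not tested.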

How the data were processed

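Liver RNA was sequenced in 6 libraries, and the authors deposited read counts per gene for each library and 1 table of FPKM over all libraries. Per the submitters' processing notes, FastQC, Trim Galore, HISAT2 2.10, HTSeq and Cufflinks 2.2.1 were used with GRCm38 (mm10). The strand setting was not given in the sources used here. Lines that name no gene stayed out of library sizes.

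From the deposited counts, low genes were removed by filterByExpr and TMM factors set the scale for the test in edgeR 4.0.16 (R 4.3.3) by the quasi-likelihood test on group alone, with Benjamini-Hochberg adjustment over 13767 genes. The authors' FPKM values served to compare levels between genes, and limma 3.58.1 on log2(FPKM + 1) and log2(FPKM + 0.1), DESeq2 1.42.0 and limma-voom were alternatives, as was leaving out each library. An offset for GC content and transcript length was added after seeing the data. Scripts were tested on simulated data. A count of 3 reads was 0.0699 to 0.0994 CPM, counting error only.

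The 30 members and all gene lists were chosen with earlier results of these data known. Values in every library are given for members called with all libraries or without control replicate 1, for the 2 with the smallest p in each role and for the LXR side, plus Hmgcs1, Srebf2 and Scap, singled out after their values were seen. Of each list of other pathway genes, the 2 with the smallest p are named, except 1 gene that is not reported here. Annotation came from GENCODE on GRCm38 and promoters from RefSeq. Of 42 other pathway genes listed, 41 were found by symbol.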

Additional observations from a re-analysis of the deposited data

How the results depend on the processing

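The number of genes called, 119 with all libraries (102 higher and 17 lower), was 247 with no filter on low counts, 934 with DESeq2 (636 higher, 298 lower), 5088 with limma-voom and quality weights (2576 higher, 2512 lower), 35 with the replicate block and 627 with the offset for GC content and length (327 higher, 300 lower). It ranged from 0 to 4632 when 1 library was left out, with 4632 without control replicate 1. In the fits with 0 calls, without control replicate 2 or knockdown replicate 1 or 3, edgeR gave 1633, 1130 and 1224 genes at an unadjusted p under 0.05. Members called lower were 5 with limma-voom and 0 to 4 when 1 library was left out. Members called higher were 3 with limma-voom, 0 with the replicate block and 0 to 3 when 1 library was left out. Other pathway genes called were 2 with DESeq2, 16 with limma-voom, 1 with the offset and 0 to 16 when 1 library was left out. The cause of these shifts was not tested.

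With the replicate block the log2 fold change of Insig2 was 1.56 (edgeR adjusted p = 0.0706). Same-numbered libraries had correlations of 0.253, -0.0820 and 0.290 in their deviations from the group means. Libraries of different number had -0.331 to 0.270. With 3 libraries per group these values cannot decide whether the numbers mark pairs, and the labels do not say. The offset moved the median of all genes from -0.05 to -0.15 and that of the members from -0.26 to -0.39, with Insig2 at 1.34 (edgeR adjusted p = 0.0370). When 1 library was left out, signs turned at least once for 16 members. Without control replicate 1 these included Hmgcs1 (-0.16), Scap (0.54), Srebf2 (0.25) and Lcat (0.16), and without knockdown replicate 2 Cyp51 (0.056). Insig1 log2 fold changes ranged from -0.32 to 0.16 (positive without control replicate 2). Abcg5 log2 fold changes ranged from -0.51 to 0.038 (positive without control replicate 1). Scarb1 log2 fold changes ranged from -0.060 to 1.13, and Soat2 log2 fold changes from -0.18 to 0.61, both negative without control replicate 2 or 3 and called without control replicate 1. Over the 30 members and all alternatives, 50 values changed sign, from 16 members, and 14 members never did.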

Other observations

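The balance of the transcripts for the biliary exporter's subunits was noticed after the values were seen. The ratio of Abcg8 to Abcg5 in FPKM was 0.684, 0.605 and 0.577 in the controls, then 0.492, 0.477 and 0.468 in the knockdown libraries. The groups did not overlap in this ratio, although they overlapped in the CPM of each gene, and no test was made of it. How often the ratio of other gene pairs parts the groups was not counted.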
